A study of Mus musculus with 14 samples.

Results

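Serpins are proteins that trap serine proteases, and 7 mouse serpin genes were followed through CT26 tumors treated with anti-PD-1: Serpinb9, Serpinb9b, Serpinb6a, Serpinb6b, Serpina3f, Serpina3g and Serpina3n. They were chosen by name, as genes known to inhibit granzymes or to be induced by interferon, with earlier results of these data known. They are 7 of the 53801 genes quantified in each tumor and 7 of the 68 whose symbol starts with Serpin. All 7 had enough counts to be tested in every comparison. CT26 is a mouse colon carcinoma line, here barcoded and injected as 250000 cells per flank site into female Balb/c mice 6 to 8 weeks old. From day 7 the mice received 200 µg of control IgG or of anti-PD-1 every 3 days for 5 doses. Bulk polyA RNA was sequenced from 5 tumors of 4 mice given control IgG (14L, 14R, 16R, 17R and 20R), from 5 anti-PD-1 responder tumors of 4 mice (24L, 26R, 30L, 30R and 35L), and from 4 anti-PD-1 non-responder tumors of 3 mice (29L, 32R, 33L and 33R). L and R name the flank, so that the L and R tumors of 14, 30 and 33 shared a mouse. Responders and non-responders both received anti-PD-1 and were told apart by tumor size at the end of treatment against the control cohort.

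A serpin offers its protease a reactive loop as bait, is cut, and locks the protease in a dead complex. Serpinb9 is the intracellular inhibitor of granzyme B, the serine protease that T and NK cells deliver with perforin into their targets, and it is known both to guard the killer cells from their own granules and to shield tumor cells. Serpinb9b, next to it on chromosome 13, is a close paralog known as an inhibitor of granzyme M. Serpinb6a is a broadly expressed inhibitor of cathepsin G-like proteases, and Serpinb6b is its paralog. The Serpina3 cluster on chromosome 12 is the mouse expansion of human alpha-1-antichymotrypsin. In it Serpina3g, also called Spi2A, is an intracellular inhibitor of lysosomal cathepsins induced in activated T cells and macrophages, Serpina3f is its neighbor, and Serpina3n is a secreted inhibitor of granzyme B and neutrophil proteases that rises in the acute phase.

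The members lie in 2 clusters in mm10. On the plus strand of chromosome 13, Serpinb6b was annotated at chr13:32965209-32979067, Serpinb9 at chr13:33003250-33017957, and Serpinb9b at chr13:33027416-33041884, with Serpinb6a on the minus strand at chr13:33917918-34002794. The chromosome 12 members, all on the plus strand, were Serpina3f at chr12:104214544-104221129, Serpina3g at chr12:104236245-104241939 and Serpina3n at chr12:104406729-104414329. All 7 are protein coding.

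The promoters are shown because close paralogs among the members differ in letters that interferon-activated factors are known to recognize. RefSeq promoter sequences on GRCm38.p6, 250 bases before to 50 after each start site, were found for all 7 members. They were searched on both strands for a STAT site (GAS, TTCNNNGAA), an interferon-stimulated response element (ISRE, GAAA and GAAA with 2 free bases between), a glucocorticoid receptor palindrome (GRE, ACANNNTGT) and a kappaB site (GGG and TTTCC with 2 free bases between). Of 32851 promoters of this length in the table, 8.3% held the GAS letters, 3.44% the ISRE, 6.85% the GRE and 1.63% the kappaB letters. GAS letters were in the promoters of Serpina3f, Serpina3g and Serpinb6a, and ISRE letters in those of Serpinb9 and Serpinb6a, where they overlap a GAS. For Serpinb6a this is the promoter at chr13:34002745-34003044, while its other promoter, at chr13:33936034-33936333, held none of the 4 motifs. Serpinb6b and Serpinb9b held none of the 4 motifs, and Serpina3n held a GRE and a kappaB but no GAS or ISRE. The GRE letters were also in the promoter of Serpina3f and the kappaB letters in that of Serpina3g. A match is a string of letters and no evidence of binding. In the promoters of Serpina3g (chr12:104235897-104236196), Serpinb9 (chr13:33004291-33004590) and Serpinb9b (chr13:33027164-33027463), all read 5′ to 3′ on the plus strand, capitals mark the GAS of Serpina3g and the ISRE of Serpinb9 (read on the other strand).
Serpina3g: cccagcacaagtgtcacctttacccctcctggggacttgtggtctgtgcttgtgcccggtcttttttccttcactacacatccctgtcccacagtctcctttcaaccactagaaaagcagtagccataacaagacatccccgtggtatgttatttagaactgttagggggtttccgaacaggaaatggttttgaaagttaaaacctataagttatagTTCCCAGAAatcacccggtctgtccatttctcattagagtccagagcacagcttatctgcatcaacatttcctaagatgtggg
Serpinb9: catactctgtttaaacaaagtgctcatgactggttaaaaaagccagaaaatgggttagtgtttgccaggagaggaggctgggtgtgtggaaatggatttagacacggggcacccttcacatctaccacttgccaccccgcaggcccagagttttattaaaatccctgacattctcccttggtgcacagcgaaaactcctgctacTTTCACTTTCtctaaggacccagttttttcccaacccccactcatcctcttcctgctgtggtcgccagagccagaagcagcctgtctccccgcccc
Serpinb9b: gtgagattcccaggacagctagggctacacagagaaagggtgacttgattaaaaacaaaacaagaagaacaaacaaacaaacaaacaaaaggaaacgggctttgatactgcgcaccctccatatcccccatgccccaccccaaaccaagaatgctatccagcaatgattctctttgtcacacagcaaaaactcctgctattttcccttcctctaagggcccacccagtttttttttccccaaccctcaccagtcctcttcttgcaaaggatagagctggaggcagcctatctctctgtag

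Set against their paralogs without gaps, the same stretches show which letters differ. The Serpina3g stretch is 33 bases long, and in all 3 genes capitals mark bases 13 to 21, where Serpina3g has its GAS.
Serpina3g: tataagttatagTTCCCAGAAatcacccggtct
Serpina3f: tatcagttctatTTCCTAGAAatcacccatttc
Serpina3n: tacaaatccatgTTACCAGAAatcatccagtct
Serpina3f kept 25 of the 33 bases and the GAS letters, with C17T inside them, counted from 1 at the 5′ end of the stretch. Serpina3n kept 24, and C15A falls inside the capitals and leaves no GAS letters. The Serpinb9 stretch is 34 bases long, and capitals mark bases 13 to 22, where Serpinb9 has its ISRE.
Serpinb9: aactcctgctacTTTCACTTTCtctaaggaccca
Serpinb9b: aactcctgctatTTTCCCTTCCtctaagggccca
Serpinb9b kept 30 of the 34 bases, but A17C and T21C fall inside the capitals and leave no ISRE letters. Whether these letters bear on expression was not tested. Serpina3f and Serpina3g, with GAS letters, were higher in responders. Serpinb6a, with GAS and ISRE letters in the promoter at chr13:34002745-34003044 and none in its other promoter, was at 0.763-fold of non-responders in responders, which did not pass the test. Serpinb6b, without any of the motifs, was at 1.76-fold of control IgG tumors in responders, which passed.

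Expected counts per tumor totalled 33237744 to 48481461. Counts scaled to library size (CPM) served for the tests, and TPM, which also divides by transcript length, for levels of different genes. Between responders and non-responders, 9.9% of 16287 tested genes were called, that is, had a Benjamini-Hochberg adjusted p under 0.05 in the quasi-likelihood test of edgeR. Between responders and control IgG tumors 13.2% did. Between non-responders and control IgG tumors 0 genes did (0%), with 758 at an unadjusted p under 0.05 and 18 called by DESeq2. Of the markers of colon epithelium, Krt20 was at 107 to 340 TPM, Cdx2 at 0.01 to 0.41 TPM, and Vil1 was too low to test. By chi-square per gene, non-responder 33R stood apart from the other non-responders, at 135 to 196 where these were at 32.8 to 37.8 among themselves. The tumors are mixtures, so that fewer cells of a type and less RNA per cell cannot be told apart. Nothing in the labels says that tumors of a group came from separate cohorts or days, and p-values measure the spread between these tumors.

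Serpina3g and Serpina3f, the 2 members next to each other on chromosome 12, rose in responders, by 3.66-fold and 4.17-fold against non-responders and by 3.84-fold and 4.11-fold against control IgG tumors, and no responder tumor overlapped any other tumor. The other 5 members did not pass the test against non-responders, so that 2 of 7 members were called there, both higher, where 5.08% of all tested genes were called higher. In responders against control IgG tumors 3 of 7 were called, the third being Serpinb6b, and all were higher, where 7.88% of genes were called higher. Against control IgG tumors 0 of 7 were called in non-responders, at adjusted p of 0.931 to 0.993. The median log2 fold change of the 7 members was 0.48 against non-responders and 0.66 against control IgG tumors, beside 0.01 and -0.01 over all tested genes. Both comparisons use the same responder tumors. The members were chosen with earlier results of these data known, so the counts beside all genes are a description and no independent support. Serpina3f and Serpina3g share stretches of sequence and had r = 0.98 over the 14 tumors, so their calls are not separate.

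**Figure D1:**
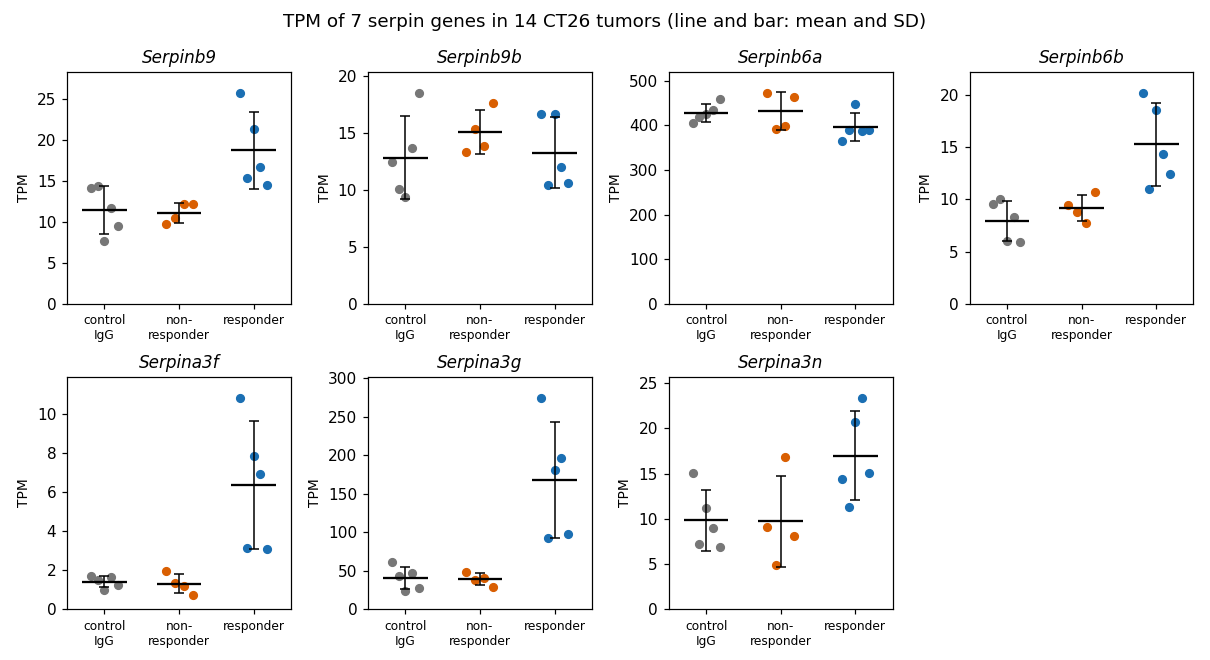
TPM of each member (vertical axes, linear, each starting at 0) in the 5 control IgG, 4 non-responder and 5 responder tumors, with a point per tumor, a line at the group mean and bars of 1 SD. Serpina3g in responders lies at 93.0 to 274 TPM and in all other tumors at 24.0 to 60.6 TPM, and Serpinb6a stays between 364 and 473 TPM in all 14.

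Serpina3g, the cathepsin inhibitor Spi2A, was at 274 TPM in responder 24L, 196 in 30R, 180 in 30L, 97.5 in 35L and 93.0 in 26R. It was at 47.8 TPM in non-responder 29L, 40.9 in 33L, 37.7 in 32R and 28.8 in 33R. Control IgG tumors held 60.6 TPM in 14L, 46.6 in 17R, 42.9 in 14R, 27.7 in 20R and 24.0 in 16R. Every responder was above every other tumor, and within responders 24L, 30L and 30R were well above 26R and 35L. In CPM the means were 163 ± 74.3 (SD, n = 5) in responders, 44.6 ± 4.8 (n = 4) in non-responders and 42.6 ± 14 (n = 5) in control IgG tumors. That is a log2 fold change of 1.87 ± 0.32 (SE) against non-responders (edgeR, adjusted p = 0.00679) and of 1.94 ± 0.29 against control IgG tumors (edgeR, adjusted p = 0.00138). Non-responders against control IgG tumors gave 0.07 ± 0.30 (edgeR, adjusted p = 0.973). Groups that do not overlap with responders on top were seen in 6.8% of tested genes against non-responders and in 8.34% against control IgG tumors, and in 2 of the 7 members in each.

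Serpina3f, the neighbor of Serpina3g, was far lower, with the same 3 responders on top. It was at 10.8 TPM in responder 24L, 7.84 in 30L, 6.94 in 30R, 3.15 in 26R and 3.10 in 35L. Non-responders held 1.93 TPM in 29L, 1.34 in 32R, 1.20 in 33L and 0.74 in 33R, and control IgG tumors 0.99 (16R) to 1.70 (14L) with a median of 1.49. Tumors 24L, 30L and 30R were the highest again, and no responder overlapped the rest. The log2 fold change was 2.06 ± 0.35 against non-responders (edgeR, adjusted p = 0.0071) and 2.04 ± 0.33 against control IgG tumors (edgeR, adjusted p = 0.00185). Serpina3g was 23.0 to 31.4 times as high as Serpina3f by TPM in responders, 24.8 to 38.9 times in non-responders and 22.9 to 35.7 times in control IgG tumors, ranges that overlap.

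The reads of the Serpina3 genes are partly shared. Of the 50-base stretches of Serpina3g transcripts 15.5% also occur in other genes, foremost Serpina3h, Serpina3i and Serpina3f, and of those of Serpina3f 10.6%, while no 150-base stretch of any member is shared. The expected counts of both were fractions in 14 of 14 tumors, which is what results when fragments are divided among genes. Summed over all 14 Serpina3 genes, where that division does not matter, the log2 fold change was 1.62 ± 0.28 against non-responders (edgeR, adjusted p = 0.00672) and 1.67 ± 0.26 against control IgG tumors (edgeR, adjusted p = 0.00143). Serpina3g held 79.5% ± 3.36 (SD, n = 5) of the TPM of the cluster in responders, 68.2% ± 6.07 (n = 4) in non-responders and 66.9% ± 7.91 (n = 5) in control IgG tumors. Among the paralogs, Serpina3h, a transcribed pseudogene, and Serpina3i were also higher in responders, by log2 fold changes of 1.04 ± 0.26 and 1.06 ± 0.31 against non-responders (edgeR, adjusted p = 0.0251 and 0.047). Both share stretches with Serpina3g, so their counts are uncertain. Serpina3a, Serpina3b, Serpina3c, Serpina3j, Serpina3k and Serpina3m reached at most 0.83 TPM in any tumor, and the pseudogenes Serpina3d-ps, Serpina3e-ps and Serpina3l-ps at most 0.02 TPM.

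Serpina3n, the secreted acute phase member, overlapped between groups. Responders held 23.4 TPM in 30R, 20.7 in 30L, 15.1 in 35L, 14.4 in 24L and 11.3 in 26R. Non-responders held 16.8 TPM in 33L, 9.04 in 29L, 8.14 in 33R and 4.89 in 32R, and control IgG tumors 15.0 in 14L, 11.2 in 16R, 8.95 in 17R, 7.19 in 14R and 6.88 in 20R. Non-responder 33L was above 3 of the 5 responders, and 24L, the responder with the most Serpina3g, was not among the highest for Serpina3n. The log2 fold change was 0.57 ± 0.29 against non-responders (edgeR, adjusted p = 0.219) and 0.66 ± 0.27 against control IgG tumors (edgeR, adjusted p = 0.128). Against non-responders it was 0.36 ± 0.27 without 32R (edgeR, adjusted p = 0.432), 0.88 ± 0.29 without 33L (edgeR, adjusted p = 0.0633) and 0.89 ± 0.32 on log2(TPM + 0.1) (limma, adjusted p = 0.0786). Its expected counts were whole numbers in every tumor.

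**Figure D2:**
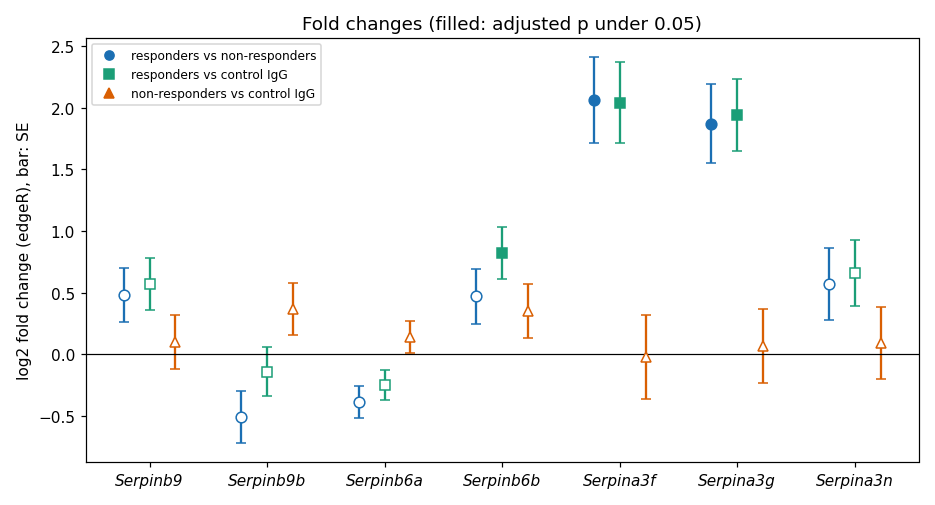
Log2 fold change of each member in edgeR (vertical axis) with 1 SE, for responders against non-responders (circles), responders against control IgG tumors (squares) and non-responders against control IgG tumors (triangles), with filled symbols at an adjusted p under 0.05. Serpina3f and Serpina3g stand near 2 in both responder comparisons, Serpinb6b is filled only against control IgG tumors, and no triangle is filled.

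Serpinb9, the granzyme B inhibitor, was at 25.7 TPM in responder 24L, 21.3 in 30L, 16.6 in 30R, 15.3 in 26R and 14.5 in 35L. Non-responders were at 12.2 TPM in 33L, 12.1 in 33R, 10.4 in 32R and 9.74 in 29L. Control IgG tumors were at 14.4 TPM in 14R, 14.1 in 14L, 11.6 in 17R, 9.50 in 20R and 7.59 in 16R. On the TPM scale all responders were above all other tumors. In CPM the groups overlapped, at 46.2 ± 11.6 (SD, n = 5) in responders, 33.2 ± 7.76 (n = 4) in non-responders and 31.1 ± 8.37 (n = 5) in control IgG tumors. The log2 fold change was 0.48 ± 0.22 against non-responders (edgeR, adjusted p = 0.173) and 0.57 ± 0.21 against control IgG tumors (edgeR, adjusted p = 0.0811), neither past the threshold. On log2(TPM + 1) limma called both, at 0.68 ± 0.19 (adjusted p = 0.0338) and 0.67 ± 0.18 (adjusted p = 0.029), on a scale on which the median tested gene moved by 0.169 and 0.085. With TPM rescaled so that the median gene stays in place, the differences were 0.46 ± 0.20 (limma, adjusted p = 0.171) and 0.55 ± 0.19 (limma, adjusted p = 0.0833).

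Serpinb9b, the granzyme M inhibitor next door, had another pattern. It was at 16.7 TPM in responder 30L, 16.6 in 24L, 12.04 in 30R, 10.6 in 35L and 10.4 in 26R. Non-responders held 13.3 (29L) to 17.7 TPM (33R) with a median of 14.6, and control IgG tumors 9.41 (16R) to 18.5 TPM (20R) with a median of 12.5, so that all groups overlapped. The log2 fold change was -0.51 ± 0.21 against non-responders (edgeR, adjusted p = 0.133) and -0.14 ± 0.20 against control IgG tumors (edgeR, adjusted p = 0.71). Without 33R, which held 54.1 CPM beside 29.4 to 38.5 in the other non-responders, the first was -0.28 ± 0.19 (edgeR, adjusted p = 0.447), and on log2(TPM + 1) it was -0.19 ± 0.19 (limma, adjusted p = 0.494). The genes share only 13 stretches of 50 bases, 0.378% of those of Serpinb9, and both had whole expected counts. Per tumor, Serpinb9 over Serpinb9b by TPM was 1.28 to 1.54 in responders, 0.677 to 0.878 in non-responders and 0.513 to 1.42 in control IgG tumors. Every responder held more Serpinb9 than Serpinb9b and every non-responder less, while control IgG tumors lay on both sides, up to 1.42 in 14R. This ratio was noticed after the values were seen and is given without a test. The sum of the 7 Serpinb9 genes differed by a log2 fold change of 0.04 ± 0.19 against non-responders (edgeR, adjusted p = 0.913). Serpinb9c, Serpinb9d, Serpinb9e, Serpinb9f and Serpinb9g reached at most 0.29 TPM.

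**Figure D3:**
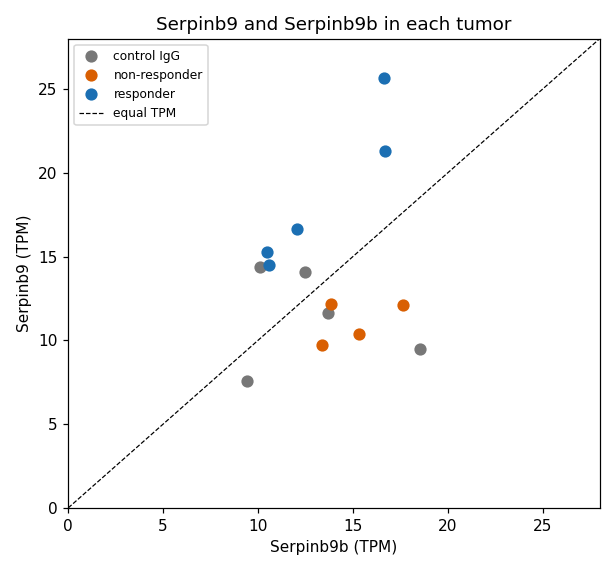
Serpinb9 (vertical axis, TPM) against Serpinb9b (horizontal axis, TPM) with a point per tumor, colored by group, and a dashed line at equal TPM. The 5 responders lie above the line at ratios of 1.28 to 1.54 and the 4 non-responders below it at 0.677 to 0.878, while control IgG tumors lie on both sides.

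Serpinb6a was the most abundant member in every tumor, at 364 (24L) to 447 TPM (30L) in responders, 393 (32R) to 473 TPM (29L) in non-responders and 405 (14L) to 459 TPM (20R) in control IgG tumors. It was the steadiest as well, and all groups overlapped. The log2 fold change was -0.39 ± 0.13 against non-responders (edgeR, adjusted p = 0.0625) and -0.25 ± 0.12 against control IgG tumors (edgeR, adjusted p = 0.187). DESeq2 called the first at -0.39 ± 0.13 (adjusted p = 0.0274), and so did edgeR with tumors of a mouse summed, at -0.36 ± 0.08 (adjusted p = 0.0216), limma with mouse as a random effect, at -0.38 ± 0.11 (adjusted p = 0.028), and edgeR without 33L, at -0.48 ± 0.13 (adjusted p = 0.0322). Without 33R it was -0.22 ± 0.10 (edgeR, adjusted p = 0.208), and on log2(TPM + 1) -0.12 ± 0.08 (limma, adjusted p = 0.256). With tumors of a mouse summed, edgeR also called it lower than in control IgG tumors, at -0.28 ± 0.07 (adjusted p = 0.0227). The fit with mouse as a random effect put the correlation of tumors of a mouse at -0.282. It called 2973 genes against non-responders, beside 1612 in edgeR, so it was not the stricter test.

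Serpinb6b, its paralog, was far lower. Responders held 20.2 TPM in 24L, 18.6 in 30L, 14.3 in 30R, 12.4 in 35L and 10.9 in 26R. Non-responders held 10.7 TPM in 33R, 9.49 in 29L, 8.81 in 32R and 7.70 in 33L, and control IgG tumors 10.04 in 14R, 9.54 in 14L, 8.26 in 17R, 6.04 in 16R and 5.92 in 20R. By TPM all responders were above all other tumors, 26R and 33R being next to each other, while in CPM the groups overlapped. On log2(TPM + 1) the median tested gene itself was higher in responders, by 0.169 against non-responders and 0.085 against control IgG tumors. The log2 fold change was 0.82 ± 0.21 against control IgG tumors (edgeR, adjusted p = 0.0187) and 0.47 ± 0.22 against non-responders (edgeR, adjusted p = 0.177). The call against control IgG tumors was lost without 20R (0.75 ± 0.22, edgeR, adjusted p = 0.0539) and without 24L (0.72 ± 0.21, edgeR, adjusted p = 0.0573). Serpinb6b held 3.71% ± 0.978 (SD, n = 5) of Serpinb6 TPM in responders, 2.07% ± 0.172 (n = 4) in non-responders and 1.83% ± 0.494 (n = 5) in control IgG tumors. Of its 50-base stretches 2.92% are shared with other genes, and its expected counts were whole, while those of Serpinb6a were fractions in every tumor. Serpinb6c, Serpinb6d and Serpinb6e reached at most 2.10 TPM.

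Granzyme, perforin and granule genes did not all move one way. Gzmb, which encodes granzyme B, was at 145 TPM in 24L, 152 in 30L, 72.5 in 30R, 65.4 in 35L and 63.4 in 26R among responders. It was at 95.9 TPM in 33R, 68.7 in 32R, 59.3 in 33L and 55.5 in 29L among non-responders, and at 45.1 (16R) to 73.5 TPM (14R) in control IgG tumors. The groups overlapped, and the log2 fold change was 0.21 ± 0.32 against non-responders (edgeR, adjusted p = 0.705) and 0.60 ± 0.30 against control IgG tumors (edgeR, adjusted p = 0.205). Prf1, which encodes perforin, differed by -0.24 ± 0.30 against non-responders (edgeR, adjusted p = 0.638). Gzmm, which encodes granzyme M and was named after its value was seen, differed by 0.18 ± 0.42 against non-responders (edgeR, adjusted p = 0.814) and by 0.04 ± 0.39 against control IgG tumors (edgeR, adjusted p = 0.965). Of 13 tested granzyme, perforin and granule genes 1 was higher and 4 were lower in responders than in non-responders. Over all tested genes 5.08% were called higher and 4.82% lower. The higher gene was Ctsc, the cathepsin that activates granzymes, higher by 0.56 ± 0.14 on the log2 scale (edgeR, adjusted p = 0.0228). The 4 lower genes were Gzmd (-1.70 ± 0.48), Gzmf (-1.72 ± 0.49), Gzmg (-1.80 ± 0.52) and, named after its value was seen, Gzme (-1.66 ± 0.48), at adjusted p of 0.0384 to 0.0423 in edgeR. These 4 are close paralogs, so that the division of reads among them is uncertain. Non-responders were uneven, at 222 ± 151 CPM (SD, n = 4) for Gzmd and 231 ± 141 CPM for Gzmf. The summed TPM of the list was 2590 in 33R beside 1200 to 1610 in the other non-responders. Against control IgG tumors none of these 4 genes passed (edgeR, adjusted p of 0.138 to 0.164). Of the 13 genes, 4 were higher and 0 lower than in control IgG tumors, where 7.88% of all tested genes were called higher and 5.3% lower.

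No difference between groups in the balance of granzyme B and its inhibitor passed the test. The difference of log2(TPM + 1) of Gzmb minus that of Serpinb9 was 2.27 ± 0.33 (SD, n = 5) in responders, 2.52 ± 0.30 (n = 4) in non-responders and 2.30 ± 0.19 (n = 5) in control IgG tumors. Responders minus non-responders was -0.25 (two-sided exact permutation test, p = 0.286, adjusted over 3 comparisons 0.429). Against control IgG tumors the difference was -0.02 for responders (exact permutation p = 0.96) and 0.23 for non-responders (exact permutation p = 0.27, adjusted 0.429). By TPM there was 4.15 to 7.13 times as much Gzmb as Serpinb9 in responders, 4.88 to 7.91 times in non-responders and 4.12 to 5.94 times in control IgG tumors.

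Interferon-gamma-induced genes rose with Serpina3f and Serpina3g. Of 22 tested, 16 were higher and 0 lower in responders than in non-responders, with a median log2 fold change of 1.08, and 18 were higher than in control IgG tumors. Ido1, which breaks down tryptophan, was higher by 2.38 ± 0.40 on the log2 scale (edgeR, adjusted p = 0.00679), and Ciita, the master regulator of MHC class II, by 2.16 ± 0.41 (edgeR, adjusted p = 0.0102). Gbp5, a guanylate-binding protein, was higher by 1.52 ± 0.33 (edgeR, adjusted p = 0.0148), and Cxcl9, a chemokine for T cells, by 1.38 ± 0.30 (edgeR, adjusted p = 0.015). The summed TPM of the list was 1440 to 3190 in responders, 841 to 1090 in non-responders and 662 to 1490 in control IgG tumors. Acute phase and STAT3-induced genes, which Serpina3n is usually counted with, were 0 higher and 0 lower of 11 tested against non-responders, and 1 higher and 1 lower against control IgG tumors.

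Markers of the cells that can carry these serpins moved too. T and NK cell markers were higher in responders for 7 of 10 against non-responders and 10 of 10 against control IgG tumors, and their summed TPM was 59.7 to 110 in responders, 26.2 to 37.1 in non-responders and 26.3 to 55.4 in control IgG tumors. Dendritic cell markers were higher for 6 of 10 and 7 of 10, led by Xcr1 (1.72 ± 0.25) and Clec9a (1.53 ± 0.23, edgeR, adjusted p = 0.00475 for both) against non-responders. Their summed TPM was 97.4 to 124 in responders, 68.7 to 121 in non-responders and 96.9 to 108 in control IgG tumors. That sum is mostly Fscn1, named after its value was seen, at 60.4 to 110 TPM. Fscn1 went the other way, by -0.24 ± 0.10 against non-responders (edgeR, adjusted p = 0.124) and -0.21 ± 0.09 against control IgG tumors (edgeR, adjusted p = 0.163). Macrophage markers were called for 1 of 10 in each, with summed TPM of 4400 to 5800 in responders, 3420 to 4200 in non-responders and 3540 to 3800 in control IgG tumors. None of the markers in these 3 lists was at 0 in any tumor. Their part in the serpin differences was not tested. Of the other lists, against non-responders, 1 of 5 neutrophil and 1 of 10 fibroblast markers were higher, and 0 of 5 endothelium, 0 of 10 epidermis, 0 of 5 skeletal muscle and 0 of 6 colon epithelium markers were called. The neutrophil gene was Csf3r, but only 2 of the 5 neutrophil markers had a positive log2 fold change, and their median was -0.64. Over all tested genes 5.08% were called higher against non-responders and 7.88% against control IgG tumors.

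To see which genes the members went with across mice, each member's log2 CPM was set against the mean log2 CPM of each of 12 lists over 11 mice, tumors of a mouse averaged, in 84 pairs with p adjusted over all 84. A pooled correlation is given only where responder mice overlapped the others in both measures, which held for 32 pairs, and 5 of these had an adjusted p under 0.05. The adjustment also counted the pairs set aside, some at a permutation p of 1e-05, which lowers the adjusted p of the 32. Adjustment over the 32 alone was not run, so calls near the threshold are uncertain. Serpinb9b went with the granzyme list, at r = 0.89 (permutation p = 0.00036, adjusted 0.00233) and rho = 0.86 (adjusted permutation p = 0.00924), and r = 0.89 without the 2 mice farthest out. Serpinb9 had r = 0.34 with the same list (permutation p = 0.306, adjusted 0.438). Within groups, after subtracting group means, the paralogs were closer, at r = 0.88 for Serpinb9b and 0.77 for Serpinb9. Serpinb6b had 0.76, Serpina3g 0.74, Serpina3f 0.68, Serpina3n 0.17 and Serpinb6a -0.25, as a description. In the 7 mice that were not responders, r with this list was 0.87 for Serpinb9b, 0.67 for Serpinb9 and 0.61 for Serpinb6b. Without the 2 of these mice farthest out these were 0.73, -0.09 and -0.03, so for Serpinb9 and Serpinb6b they rest on those mice. Serpina3n went with the acute phase list, at r = 0.80 (permutation p = 0.00237, adjusted 0.0117) and rho = 0.76 (adjusted permutation p = 0.0318), and r = 0.67 without the 2 mice farthest out. It also went with the fibroblast (r = 0.72, permutation p = 0.0116, adjusted 0.0442, rho = 0.81) and endothelium lists (r = 0.73, permutation p = 0.0114, adjusted 0.0442, rho = 0.65). Serpinb9 went with the fibroblast list (r = 0.76, permutation p = 0.00689, adjusted 0.0289, rho = 0.66). Without the 2 mice farthest out these 3 were 0.88, 0.62 and 0.50, and the adjusted permutation p of rho was 0.0174, 0.0993 and 0.0857. Serpina3n had a pooled r of 0.46 with the neutrophil list (adjusted permutation p = 0.261). After subtracting group means it had 0.83 with the acute phase, 0.81 with the neutrophil, 0.59 with the fibroblast and 0.52 with the endothelium list, as a description.

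For the interferon and T and NK lists the responder mice stood above the rest, so the relation was looked at in the 7 other mice. There Serpina3g gave r = 0.91 with the interferon list (exact permutation p = 0.00417, adjusted 0.175) and rho = 0.75 (exact permutation p = 0.0663, adjusted 0.398). With the T and NK list it gave r = 0.95 (exact permutation p = 0.00417, adjusted 0.175) and rho = 0.89 (exact permutation p = 0.0123, adjusted 0.172). Serpinb9 gave r = 0.88 with the interferon list (exact permutation p = 0.0157, adjusted 0.232) and rho = 0.86 (exact permutation p = 0.0238, adjusted 0.286). Without the 2 mice farthest out r fell to 0.83, 0.58 and 0.51, so the last 2 rest partly on those mice. Serpina3f gave r = 0.63 with the interferon list (exact permutation p = 0.123, adjusted 0.449), rho = 0.46 (exact permutation p = 0.302, adjusted 0.725), and r = 0.30 without the 2 mice farthest out. Of the 84 pairs 15 had an exact permutation p under 0.05 in these 7 mice and 0 after adjustment, the lowest adjusted p being 0.175 for r. After subtracting group means, which leaves only the spread within groups, r with the interferon list over 11 mice was 0.96 for Serpina3g, 0.86 for Serpina3f, 0.90 for Serpinb9, 0.96 for Serpinb6b, 0.50 for Serpinb9b, -0.44 for Serpinb6a and 0.11 for Serpina3n, as a description.

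**Figure D4:**
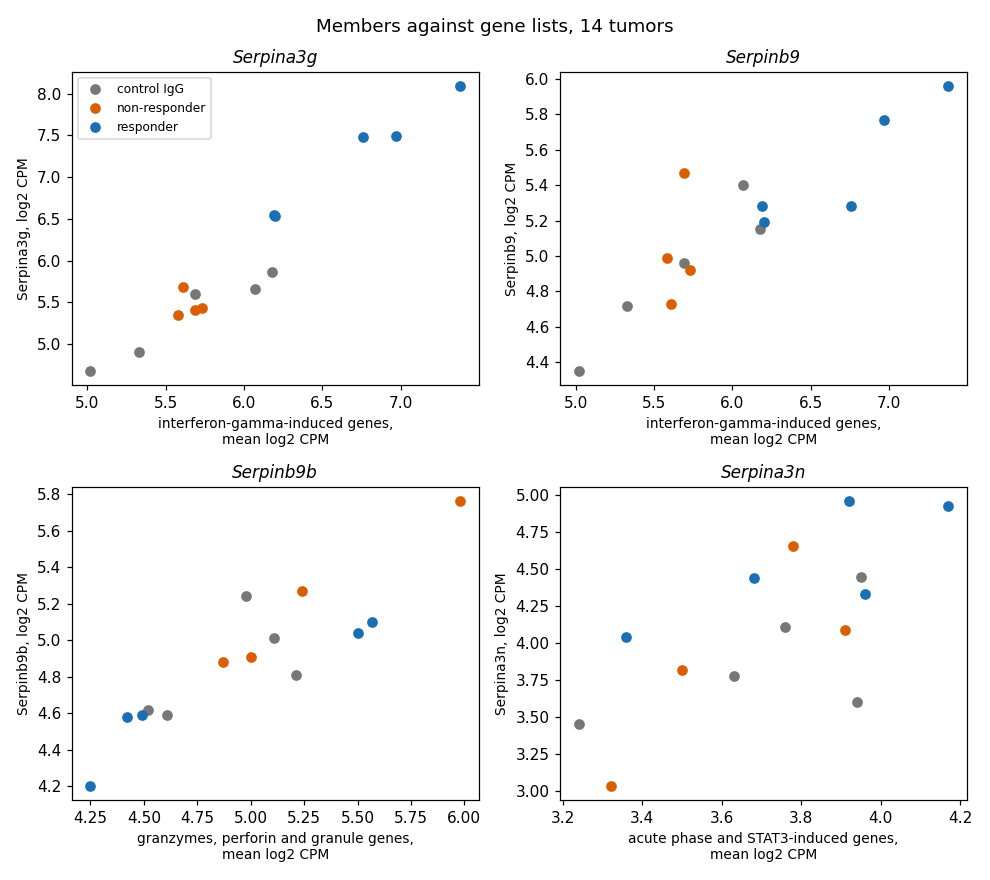
Log2 CPM of a member (vertical axes) against the mean log2 CPM of a gene list (horizontal axes) with a point per tumor, colored by group. Serpina3g and Serpinb9 are set against interferon-gamma-induced genes, Serpinb9b against granzyme, perforin and granule genes, and Serpina3n against acute phase genes. Serpina3g and Serpinb9 are highest in responder 24L, while Serpinb9b is highest in non-responder 33R.

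Of 61 other serpin genes, paralogs included, 27 had enough counts to test. Against non-responders 3 were higher in responders and 1 was lower, where 5.08% of all tested genes were called higher and 4.82% lower. Beside Serpina3h and Serpina3i the higher gene was Serping1, the C1 inhibitor of complement, higher by 0.68 ± 0.20 on the log2 scale (edgeR, adjusted p = 0.0443). The lower gene was Serpinb2, the intracellular plasminogen activator inhibitor of macrophages, at -1.22 ± 0.36 (edgeR, adjusted p = 0.0446). Against control IgG tumors 3 were higher and 1 lower as well, where 7.88% of all tested genes were called higher and 5.3% lower. Non-responders had 0 called against control IgG tumors.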

How the data were processed

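RNA from 14 CT26 tumors of 11 mice was sequenced by the authors, who used STAR for alignment to mm10 and RSEM for gene quantification (versions not given in the sources used here for the tumors). The expected counts the authors deposited are RSEM's estimates, not normalized, in which a fragment matching several genes is split between these. The TPM the authors deposited are the same estimates per effective length, scaled to 1 total. The FPKM values the authors deposited were not used.

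Groups and replicates came from the labels. The 7 members, the gene lists and the rule for named genes were chosen with earlier results of these data known. The rule names all members, their paralogs, other serpins called against non-responders, at most 4 genes per list with the lowest p in that comparison, Gzmb and Prf1, and the 5 genes most alike to each member.

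Rounded expected counts went into edgeR 4.0.16 under R 4.3.3 (TMM, filterByExpr, quasi-likelihood, 1 fit of 14 tumors and 3 groups, no covariate), with Benjamini-Hochberg adjustment over 16287 genes and calls at 0.05. SE is the log2 fold change divided by the root of F. Log2 CPM used a prior count of 2. DESeq2 1.42.0 and limma 3.58.1 were alternatives. On simulated counts for responders against non-responders over 16287 genes, edgeR recovered 67.4% of changes of 2-fold and 74.3% of 3-fold, with 7.19% of calls false, and DESeq2 had 21% false. The simulation changed 200 genes, took the spread per gene from edgeR, and drew each tumor independently, without shared mice. These shares therefore need not hold for the real calls of either tool. Exact and 100000-resample permutation tests, two-sided, used SciPy 1.17.1. The smallest p that the resamples can give is 1e-05. Shared stretches were counted in GENCODE M21 transcripts. Totals of 33237744 to 48481461 make 3 counts at most 9.03e-06% of a tumor, which covers counting error only.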

Additional observations from a re-analysis of the deposited data

How the results depend on the processing

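Serpina3f and Serpina3g were called in responders against both other groups under all 13 alternatives and with any of the 14 tumors left out, at log2 fold changes of 1.40 to 2.26. No paired analysis was possible because the groups share no replicate numbers. Against non-responders, members called were 4 on both TPM scales (Serpinb9 and Serpinb6b added), and genes called over all were 2634 with DESeq2, 2973 with mouse as a random effect (the tumors of a mouse correlated at -0.282), 691 with only these groups fitted, and 566 to 1980 with a tumor left out (566 without 24L, 616 without 32R, 684 without 30R, 809 without 33R). Against control IgG tumors the count was 1188 to 3379 with a tumor left out (1188 without 20R, 1198 without 24L, 1389 without 30R, 3379 without 33R). Between non-responders and control IgG tumors it was 18 with DESeq2, 3 without a filter on low counts and 0 to 5 with a tumor left out (5 without 35L). Against control IgG tumors Serpinb9 was called by DESeq2 (0.56, adjusted p = 0.0417), without 14R (0.71, edgeR, adjusted p = 0.0389) and without 33R (0.57, edgeR, adjusted p = 0.0473).

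Directions turned for differences that had not been called, and for Serpinb6b against control IgG tumors when it was summed with its far more abundant paralog. With paralogs summed, the sum holding Serpinb9b gave 0.04 and 0.27 against non-responders and control IgG tumors, and that holding Serpinb6b -0.34 and -0.20. Serpinb9b in responders against control IgG tumors was 0.06 on both TPM scales. In non-responders against control IgG tumors, TPM gave -0.01 on both scales for Serpinb9 and -0.08 and -0.09 for Serpina3n, tumors of a mouse summed gave 0.10 for Serpina3f and -0.01 for Serpina3n, and the summed Serpina3 genes gave 0.06. With a tumor left out, that comparison ran from -0.09 to 0.22 for Serpinb9, -0.03 to 0.23 for Serpinb6a, -0.23 to 0.09 for Serpina3f, -0.07 to 0.21 for Serpina3g and -0.21 to 0.31 for Serpina3n. Gzmb minus Serpinb9 in responders minus control IgG tumors ran from -0.15 to 0.05 with a tumor left out. The cause of these shifts was not tested. The rescaled TPM, and rho in place of r, were chosen after seeing the data. By rho 4 pairs passed rather than 5, 3 of them shared, the other being Serpinb9 with the epidermis list (rho = -0.85, adjusted permutation p = 0.0128, but r = -0.63, adjusted permutation p = 0.106). The lowest count of a member was 48.36, for Serpina3f in 33R.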

Other observations

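Over 14 tumors, with the tumors of a mouse both counted, the genes most like each member by the Pearson correlation of log2 CPM differed between paralogs. For Serpinb9 they were Phf11b (r = 0.977), Trim30a (0.976), Phf11a (0.974), Ifi47 (0.966) and Cxcl11 (0.964). For Serpinb9b they were Sh2d1b2 (0.901), Scin (0.895), Cd55 (0.885), Gzme (0.883) and Gzmc (0.880). Serpinb6b was most like Casp1 (0.962), Nkg7 (0.959), Tmem140 (0.949), Gzma (0.948) and Plac8 (0.945), and Serpinb6a most like Tes (0.967), Pold4 (0.965), Rpl30 (0.964), Eif2s2 (0.963) and Atp6v1c1 (0.960). Serpina3g was most like Tapbpl (0.987), Gm2a (0.986), Ubd (0.983), Il18bp (0.982) and Unc13d (0.982). Serpina3f was most like Mpeg1 (0.982), Psap (0.980), Slamf8 (0.979), Serpina3g (0.978) and Sdc3 (0.974), and Serpina3n most like Efemp1 (0.950), Pcolce2 (0.941), Lbp (0.920), Galnt16 (0.920) and Cadm3 (0.919). These are descriptions of tumors that share groups and mice.

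Between members, Serpinb9 and Serpinb6b had r = 0.92 over the 14 tumors and 0.89 after subtracting group means, while Serpinb9 and Serpinb9b had 0.16 and 0.56. Serpina3n had 0.59 with Serpina3g, and 0.20 after subtracting group means.

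In the 3 mice with both flanks sequenced, Serpina3g was by CPM the closest member between flanks in mice 30 and 33. It was at 180 and 179 CPM (1.01-fold) in responder mouse 30 and at 40.8 and 42.4 CPM (1.04-fold) in non-responder mouse 33. In control mouse 14 it was at 58.1 and 50.5 CPM (1.15-fold). By TPM Serpina3g was not the closest in mouse 33, at 40.9 in 33L and 28.8 in 33R, where Serpinb9 was at 12.2 and 12.1. In mouse 14 Serpina3g was at 60.6 TPM in 14L and 42.9 in 14R. By CPM Serpinb9b was 1.81-fold and Serpinb6b 1.82-fold higher in the right flank tumor of mouse 33. The gap was smaller by TPM, at 13.85 in 33L and 17.66 in 33R for Serpinb9b and 7.70 and 10.66 for Serpinb6b. Serpina3n was 1.8-fold higher by CPM in the left flank tumor of mouse 14. With 3 mice no test was made.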
